A study of Macaca fascicularis with 36 samples.

Results

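The comparison described here set letter A against letter C inside the same monkey. A letter (A, B or C) marks each of the 3 libraries made from an animal, and the labels used here do not say what the letters stand for. The 20 libraries were chosen by their labels alone, namely letters A and C of the 10 animals whose identifiers belong to the later of 2 runs of numbers, out of 36 libraries from 12 animals in the series. All were bulk RNA sequencing libraries of brain, from the frontal cortex of Macaca fascicularis, the cynomolgus monkey, collected on day 2 after an intrathecal injection. Animals 1501, 1502 and 1503 had received the isotype control antibody anti-gD at 200 mg/kg. Animals 4501, 4502, 4503 and 4504 had received 50 mg/kg of Para09, which is an antibody that activates human TREM2. Animals 5502, 5503 and 5504 had received Para09 at 200 mg/kg. Age and sex are not in the labels used here, and every animal carried an injected antibody.

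TREM2 is a lipid-sensing receptor on microglia, the resident macrophages of the brain. A piece of frontal cortex is a mixture of neurons, astrocytes, oligodendrocytes, microglia, vessel cells and, at the surface, meninges. The cortex is layered, and myelinated fibres lie beneath it. In bulk RNA, fewer cells of a type and less RNA per cell cannot be told apart. The genes carry Ensembl-type identifiers that the files do not pair with names, and 0 were found in the reference gene table, so no cell type marker could be checked and genes are given by identifier with no statement of function.

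Libraries held 16.7 to 37.0 M counts (M is the SI prefix mega), and 18142 to 19677 genes had at least 1 count. Library 4504A was the deepest at 37.0 M, and the next A library held 25.1 M. In an exact two-sided paired permutation test over the 10 pairs, none of 5 library measures differed between letters beyond the spread of the pairs. Total counts averaged 24.5 M ± 5.06 in A and 22.3 M ± 1.89 in C (SD, n = 10; exact permutation p = 0.146, adjusted over the 5 measures 0.366). Genes detected averaged 19034 ± 426 in A and 19120 ± 185 in C (SD, n = 10; exact permutation p = 0.529, adjusted 0.561). The remaining measures were the shares of counts in the 100 most abundant genes and in genes of at most 200 exonic bases, and the counts as a share of the total used for RPKM, with adjusted p from 0.366 to 0.561 in the same exact test.

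The first question was how far the A and C libraries of one animal lay apart. For each animal the log2 CPM difference, A minus C, was taken for the 14682 genes that averaged at least 1 CPM, the count per 1 M counts. The SD of these differences over genes was lowest in animal 5504 at 0.308 and animal 1501 at 0.327. It was highest in animal 1502 at 0.599, in 4501 at 0.578 and in 4503 at 0.578, and the median over the 10 animals was 0.451. The range was 0.327 to 0.599 with anti-gD, 0.389 to 0.578 with Para09 at 50 mg/kg and 0.308 to 0.513 with Para09 at 200 mg/kg, so the treatments overlapped. The number of genes over 2-fold apart ran from 263 in animal 5504 to 1222 in animal 1502, or 1.79% to 8.32% of the genes. In animal 4501 most of these genes were higher in C (884 against 161 higher in A), and in animal 4504 most were higher in A (386 against 87). Set against counting noise, the 2 libraries differed by a chi-square per degree of freedom of 8.42 in animal 1501, 9.80 in animal 5504 and 28.2 to 67.8 in the other 8 animals.

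Pairs of libraries from one animal overlapped widely with pairs from different animals. Same-letter libraries from different animals of the same treatment had a median SD of 0.494 (0.354 to 0.702, 24 pairs). Libraries of different letters from different animals of the same treatment had a median of 0.531 (0.376 to 0.687, 24 pairs). By correlation over the 10038 genes that averaged at least 10 CPM, the most similar of the other 19 libraries came from the same animal for 4 of 20 libraries, those of animals 1501 and 5504. It came from the same letter of another animal for 13 libraries. Far fewer of the other libraries shared the animal than shared the letter, so these counts do not weigh animal against letter. The labels of animals held nonetheless. When 200 genes were picked for agreement between letters A and B, the C library was placed with the A library of its own animal in 10 of 10 cases. Picking the genes on letters C and B placed the A library correctly in 10 of 10.

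**Figure D1:**
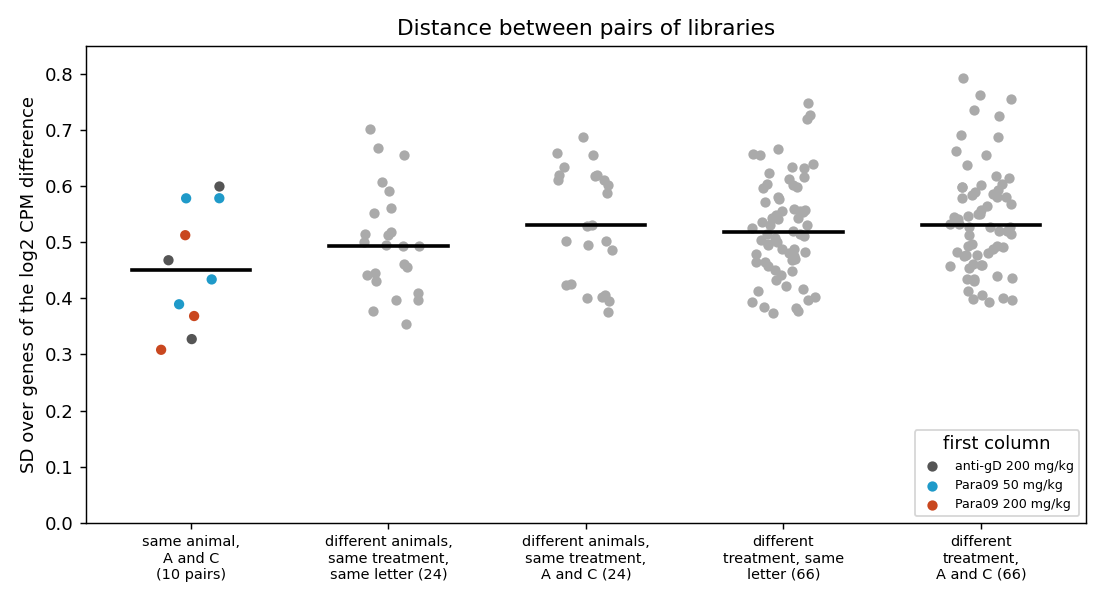
The vertical axis is the SD over 14682 genes of the log2 CPM difference between 2 libraries, each point is a pair of libraries, and black lines are medians. Same-animal pairs, coloured by treatment, run from 0.308 to 0.599 and lie within or just below the range of pairs from different animals.

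With terms entered in the order treatment, animal and letter, the variation of log2 CPM over these 14682 genes divided into 42.8% between animals of the same treatment (7 degrees of freedom), 32.8% between the libraries of an animal beyond a common letter difference (9), 16.7% between treatments (2) and 7.71% between letters (1). Per degree of freedom this came to 6.11% for animals, 3.65% for libraries within animals, 8.35% for treatments and 7.71% for letters. In 5126 genes, or 34.9%, the variation per degree of freedom within animals exceeded that between animals of a treatment. The value between animals also contains the spread between libraries, so it is not the variance of the animals alone. In the edgeR quasi-likelihood test, 507 of 15760 genes (3.22%) differed between animals of the same treatment beyond the spread of their A and C libraries, at an adjusted p under 0.05, and 2824 (17.9%) at an unadjusted one. That count was 234 without animal 1501, 274 without animal 1502 and 292 without animal 5504.

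The second question was whether any gene differed between letters in the same way in all animals. One gene passed the paired edgeR test, ENSMFAG00000034819, a transcript of 191 exonic bases near the detection floor. Its read count was 0 to 7 in the A libraries and 9 to 46 in the C libraries. In A it stood at 0 to 0.277 CPM with a median of 0.123, and in C at 0.443 to 1.96 CPM with a median of 0.694. The C library was higher in 10 of 10 animals, and the A and C ranges did not overlap. However, the gene passed the count filter through its C libraries alone. The filter asked for a minimum level in 10 libraries, which all 10 C libraries reached and no A library did. Both facts therefore follow from passing the filter and are no separate support for a difference. Without that filter its adjusted p in edgeR's quasi-likelihood test was 0.00899. The 0 in library 1502A allows up to 0.194 CPM (3 counts, counting error only), which lies below every C library. The log2 difference, A minus C, was -2.51 (SE 0.285), with an adjusted p of 0.00989 in edgeR's quasi-likelihood test. The gene of next smallest p, ENSMFAG00000034836, also has 191 exonic bases and a low mean, 0.728 CPM, and was not called. There too C was the higher in 10 of 10 animals, with a log2 difference of -1.90 (SE 0.288, adjusted p 0.121 in the same test). ENSMFAG00000034819 lies below the mean of 1 CPM required of the other genes named for the letter, and it is named because it was the only call.

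This was 1 of 15760 genes tested (0.00635%). The call, but not the size of the difference, turned on single animals. Keeping the same genes, its adjusted p from edgeR was 0.0728 without animal 1501, 0.0634 without 5502 and 0.06 without 5504, and 0.0078 to 0.0406 without any of the other 7. The log2 difference was -2.45, -2.43 and -2.47 without those 3 animals, and -2.68 to -2.40 over all 10 omissions. With genes filtered afresh after each omission, it fell below the count filter without animal 1501, 4503, 4504 or 5502 and was not tested there. DESeq2 called 12 genes, 6 higher in each letter, and ENSMFAG00000034819 was among them. At an unadjusted p under 0.05 edgeR gave 1451 genes (9.21%), 789 higher in A (5.01%) and 662 higher in C (4.2%). This unadjusted count was 891 without animal 1502, 945 without 1503, 815 without 5502 and 2334 without 5503.

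Among genes averaging at least 1 CPM, the 2 of smallest p in each direction did not pass the edgeR test (adjusted p 0.534 for each), although their pairs mostly leaned one way. They were picked for that p, so the values describe these 10 animals only. ENSMFAG00000000183 (6679 exonic bases) stood at 6.16 to 14.9 CPM in A (median 8.03) and 3.10 to 7.75 CPM in C (median 5.29). A was the higher in 10 of 10 animals, with a log2 difference of 0.68 (SE 0.133), and the ranges overlapped. ENSMFAG00000019290 (4005 bases) stood at 25.0 to 49.8 CPM in A (median 29.4) and 14.5 to 29.97 CPM in C (median 20.1). A was the higher in 9 of 10 animals, the exception being 5503, with a log2 difference of 0.60 (SE 0.131). For both genes animal 4503 had the highest A library and the largest difference.

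The pair with the opposite lean were short genes. ENSMFAG00000024102 (333 bases) stood at 0.547 to 4.64 CPM in A (median 1.60) and 1.95 to 5.31 CPM in C (median 4.08). C was the higher in 10 of 10 animals, with a log2 difference of -1.10 (SE 0.216), though the difference was only -0.08 in animal 1501, whose A library was the highest of the A libraries. ENSMFAG00000008274 (153 bases) stood at 1.41 to 7.33 CPM in A (median 2.19) and 2.53 to 36.6 CPM in C (median 5.49). C was the higher in 9 of 10 animals, the exception being 1503, with a log2 difference of -1.22 (SE 0.26). Library 1501C alone gave the 36.6 CPM, and the next C library held 7.28 CPM. DESeq2 called these 4 genes, with adjusted p from 0.00305 to 0.0253.

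**Figure D2:**
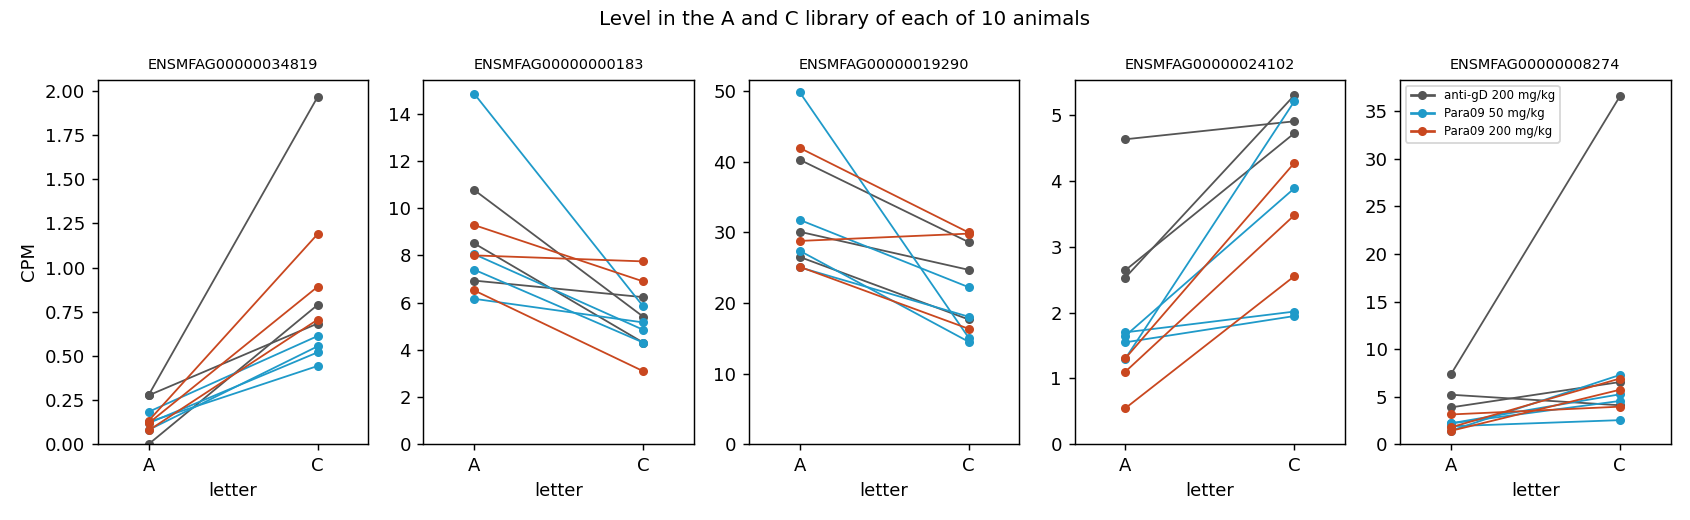
Each panel plots one gene's CPM (vertical axis, from 0) in the A and C library of each animal, joined by a line and coloured by treatment. For ENSMFAG00000034819 all 10 lines rise from A to C and the ranges do not overlap, while the other 4 genes overlap between letters. ENSMFAG00000034819 passed the count filter through its C libraries alone, so its separation follows from passing.

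Over all genes averaging at least 1 CPM, 19 were higher in A in all 10 pairs (0.129%) and 7 were higher in C in all 10 (0.0477%). Most of these differences were small: the log2 difference of the 19 ran from 0.06 to 0.72 with a median of 0.13, and that of the 7 from -1.10 to -0.06 with a median of -0.28. No gene of the 26 passed the edgeR test (lowest adjusted p 0.534).

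Animals 1504 (anti-gD, 200 mg/kg) and 5501 (Para09, 200 mg/kg) also had A and C libraries, in the earlier run of identifiers, and these entered no fit. Of the 5 genes described above, 2 of 10 differences in these animals had the direction of the 10 pairs and 8 the opposite one. ENSMFAG00000034819 had 2 counts in 1504A and 6 in 1504C, the same direction as before. It had 5 counts in 5501A and 0 in 5501C, the opposite direction, where 0 allows up to 0.147 CPM against 0.254 CPM in 5501A, so this difference is only a few reads. ENSMFAG00000008274 stood at 3.82 CPM in 1504A against 1.43 CPM in 1504C, and at 3.05 against 1.47 CPM in 5501. ENSMFAG00000019290 stood at 16.3 CPM in 1504A against 41.4 CPM in 1504C. Of the 26 genes with a single direction in all 10 pairs, 10 kept it in animal 1504 and 8 in animal 5501. Another set was the 1378 genes averaging at least 1 CPM with an unadjusted p under 0.05 in the edgeR test. Of these, 27.8% kept their direction in 1504 and 62.7% in 5501. Among all 14682 genes the direction was shared for 51.3% in 1504 and 63.6% in 5501. The identifier run differs along with the animal here, and the 2 cannot be told apart.

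The third question was whether the letter difference depended on treatment. In the edgeR test of the interaction, 0 of 15760 genes were called, with a lowest adjusted p of 0.702 and 1046 genes (6.64%) at an unadjusted p under 0.05. The unadjusted count was 436, 463, 618 and 557 without animals 1502, 1503, 4502 and 4503, and 2271, 1581, 1796 and 1691 without 1501, 4501, 4504 and 5502. DESeq2's likelihood ratio test called 7. Taken separately, the A and C libraries differed in 0 genes at an adjusted p under 0.05 in each of the 3 treatments in edgeR. Without adjustment, 2941 genes (18.7%) had a p under 0.05 with anti-gD, 1081 (6.86%) with Para09 at 50 mg/kg and 245 (1.55%) with Para09 at 200 mg/kg. DESeq2 called 0, 153 and 1 genes in the same order. With Para09 at 50 mg/kg the edgeR result turned on animal 4504: without it, 188 genes were called, 63 higher in A and 125 higher in C. That fit compares 3 pairs, with a spread shared over the 9 animals left. The unadjusted counts also turned on single animals. With anti-gD the count was 4623 without animal 1501, 524 without 1502 and 868 without 1503. With Para09 at 50 mg/kg it was 465 without animal 4503 and 1898 without 4504. With Para09 at 200 mg/kg it was 94 without animal 5502, 630 without 5503 and 89 without 5504. It was also 427 without 4501 and 471 without 4504, which had the other dose but enter the shared estimate of the spread.

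Most genes stayed within 2-fold in every animal, and most of those that were often further apart were not higher in the same letter each time. Of the 14682 genes, 11517 (78.4%) were within 2-fold in every animal, and 3165 (21.6%) were over 2-fold apart in at least 1. In 216 genes (1.47%) the libraries were over 2-fold apart in at least 5 of the 10 animals. Of these, 173 (1.18% of all) were over 2-fold higher in A in some animals and in C in others. Another 35 (0.238%) were over 2-fold apart only with A higher, and 8 (0.0545%) only with C higher. A gene among the 173 can still lean one way: ENSMFAG00000031682 was over 2-fold higher in C in 8 animals and in A in 1.

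The 4 genes with the largest median difference, among those averaging at least 10 CPM, fell into separate patterns. ENSMFAG00000031913 (9711 exonic bases) ran from 2.98 to 57.1 CPM over the A libraries (median 14.0) and from 0.0492 to 43.9 CPM over the C libraries (median 5.01). In animal 4503 it stood at 57.1 CPM in A and 0.173 CPM in C, from 1437 and 4 counts, a log2 difference of 7.79. Animals 5502 (200 and 5 counts) and 4502 (71 and 1 counts) differed by 4.90 and 4.51. In animals 1501, 1503 and 5503 the C library was the higher, with differences of -0.36, -0.82 and -0.19. A was thus over 2-fold higher in 7 animals, and the A and C ranges overlapped. ENSMFAG00000000951 (7219 bases) and ENSMFAG00000031107 (2476 bases) had their 3 largest differences in the same 3 animals, with 7.34 and 7.45 in animal 4503, but the other animals stood in another order. ENSMFAG00000000951 differed by 0.22 in animal 1503 and by 0.01 in 5503, where ENSMFAG00000031913 was the higher in C. Their differences correlated with those of ENSMFAG00000031913 at r = 0.959 and r = 0.97 over the 10 animals. In library 4503A they reached 266 and 128 CPM, where library 4503C held 1.56 and 0.65 CPM.

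ENSMFAG00000031682 (2148 bases) had another pattern. It ran from 3.76 to 105 CPM in A (median 8.08) and from 10.8 to 105 CPM in C (median 28.6). C was over 2-fold higher in 8 animals, most in 4501, at 68.9 CPM against 5.68 CPM in A, and in 5502, at 105 against 8.81 CPM. Animal 4504 was the reverse, at 105 CPM in A and 10.8 CPM in C, and animal 1501 was slightly higher in A, at 33.4 against 24.9 CPM. Library 4504A was also the deepest library, and the part of depth in this value was not tested. The differences of ENSMFAG00000031682 and ENSMFAG00000031913 correlated at r = -0.356 over the 10 animals. None of the 4 genes passed the paired edgeR test (adjusted p 0.534 for each), and the log2 difference was 1.85 (SE 0.688) for ENSMFAG00000031913 and -1.67 (SE 0.563) for ENSMFAG00000031682.

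Each pattern was shared by other genes. The A minus C differences of 46 other genes followed those of ENSMFAG00000031913 over the 10 animals at r of at least 0.9, and 2 ran opposite at r of -0.9 or below. For ENSMFAG00000031682 there were 214 followers and 8 opposites, and no gene followed both. These groups were picked on the same differences, so their values are a description with no test. How many genes follow an arbitrary gene this closely was not counted, so whether 46 or 214 is many is not known. The 46 genes had a median level of 7.43 CPM and a median exonic width of 2958 bases. Their median difference was 3.82 in animal 4503, 1.97 in 5502, 1.46 in 4502, 1.22 in 5504 and 1.06 in 4501, and it lay between -0.21 and -0.10 in animals 1501, 1503 and 5503. The 214 genes had a median level of 18.2 CPM and a median width of 4055 bases. Their median difference was -1.65 in animal 4501, with C higher for 214 of 214, and 1.25 in animal 4504, with A higher for 214 of 214. It was -1.25 in 5502, -0.77 in 5504 and -0.71 in 4502, each with 0 of 214 genes higher in A.

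The same groups were read in animals 1504 and 5501, whose libraries had no part in choosing them. In animal 1504, 44 of the 46 genes were lower in A than in C, with a median difference of -1.84, where the median of all 14682 genes was -0.01. ENSMFAG00000031913 itself stood at 11.1 CPM in 1504A and 62.7 CPM in 1504C. In animal 5501 the 46 genes were mixed, with 19 higher in A and a median of -0.08. The 214 genes were higher in A for 208 of 214 in animal 5501, with a median of 0.95, and for 169 of 214 in animal 1504, with a median of 0.17. Of all genes, 49.5% were higher in A in animal 5501 and 48.4% in animal 1504. ENSMFAG00000031682 stood at 56.8 CPM in 5501A against 5.49 CPM in 5501C. Each group shared a direction in at least 1 of these animals, and it was the reverse of that in most of the 10 pairs.

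**Figure D3:**
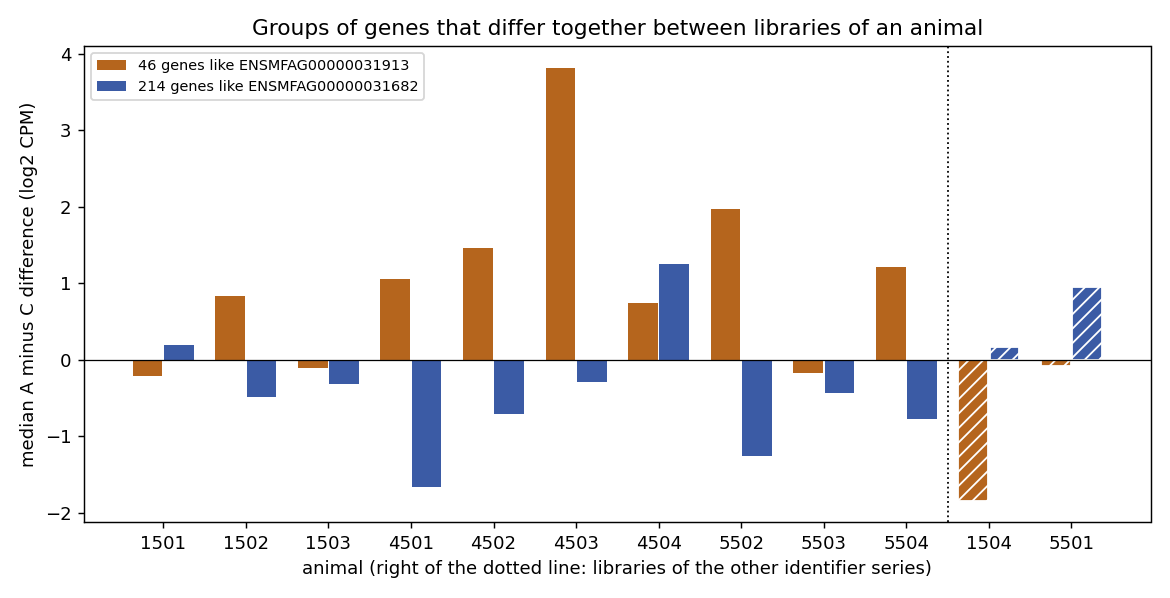
Bars give the median A minus C log2 CPM difference in each animal for the 46 genes that follow ENSMFAG00000031913 and the 214 that follow ENSMFAG00000031682. Hatched bars are animals 1504 and 5501, which had no part in choosing the genes, and their larger bars (-1.84 and 0.95) have the opposite sign to most of the 10 animals.

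Across the 10038 genes averaging at least 10 CPM, the within-animal differences lay along few axes. The 3 leading components of the 10 difference profiles held 85.6% of their squared size, at 41.8%, 27.0% and 16.8%, and the fourth held 3.58%. The first weighted animals 1502 (0.63), 5502 (0.48), 1503 (0.48) and 4501 (0.25) one way and 5503 (-0.24) the other. It was broad: 1098 genes, or 10.9%, held 50% of its squares. The second weighted 4501 (0.66), 4502 (0.36), 4503 (0.27), 5503 (0.26), 5504 (0.20) and 5502 (0.16) against 4504 (-0.40) and, less, the 3 anti-gD animals (-0.18 to -0.11). The third was chiefly animal 4503 (0.81), with 4504 at 0.43, 4502 at 0.28 and 4501 at -0.24. These were narrower, with 362 and 329 genes holding 50% of the squares.

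Correlations between the difference profiles of 2 animals ran from -0.702 to 0.874 over the 45 pairs of animals, with a median of 0.10. They are across genes, which are not independent replicates. The profiles of animals 1502 and 1503 correlated at 0.874, 1503 and 5502 at 0.712, and 1502 and 5502 at 0.703. Animal 5503 ran opposite to this trio, at -0.702 with 1503, -0.635 with 1502 and -0.417 with 5502. Animals 4501 and 4504, of the same treatment, correlated at -0.617. In all, 5 pairs of animals exceeded 0.5 and 4 lay under -0.5. The 12 pairs of the same treatment had a median of 0.13 (-0.617 to 0.874), and the 33 pairs of different treatments a median of 0.03 (-0.702 to 0.712), so alike and opposite profiles occurred within treatments and across them. The profile of animal 5501 correlated at 0.628 with that of 1503, at 0.584 with 1502 and at -0.712 with 5503, and the profile of animal 1504 at -0.699 with 4503.

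**Figure D4:**
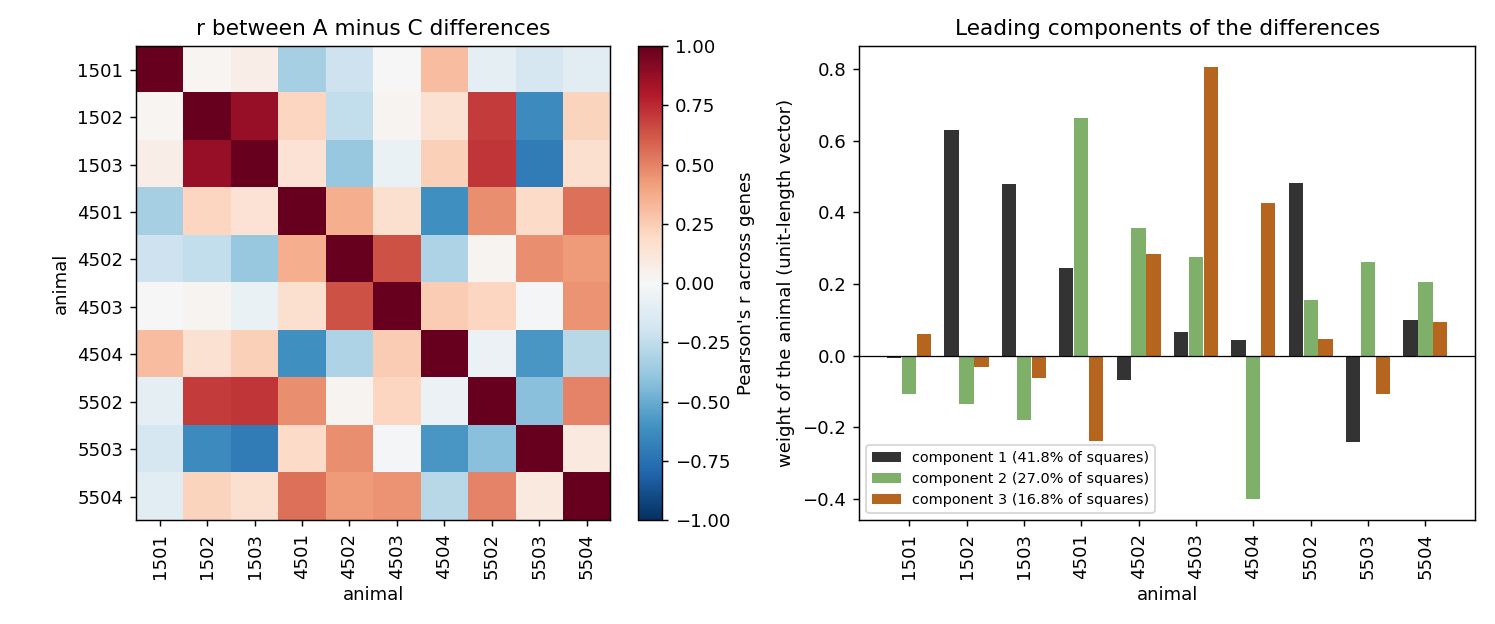
The left panel colours Pearson's r across 10038 genes between the A minus C profiles of 2 animals, and the right panel gives each animal's weight on the 3 leading components, whose overall sign is arbitrary. Animals 1502, 1503 and 5502 form a red block, with 5503 in blue against them, and 4501 and 4504 have weights of opposite sign on the second component.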

How the data were processed

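Per the file headers, each deposited table lists 28623 genes with their exonic width, RPKM and read count. GSNAP is the aligner in the submitters' processing notes. Build, annotation, strand setting and treatment of multiply matching reads are not stated in the labels or headers, so overlapping or near-identical genes may have exchanged counts. The authors' RPKM values were used only to recover the total behind their scaling. The deposited counts were fitted in R 4.3.3 by edgeR 4.0.16 (quasi-likelihood, TMM, filterByExpr, 15760 genes, Benjamini-Hochberg, calls at an adjusted p under 0.05), with the animal as a block. Pairing comes from the animal labels. Log2 CPM used a prior count of 2. The log2 difference divided by the root of F gave its SE. Alternatives used DESeq2 1.42.0 and limma 3.58.1. Nothing says that A and C came from separate pieces or extractions.

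Genes were named by the smallest p (2 for each letter, mean CPM at least 1) and by the largest median absolute difference (4, mean CPM at least 10). The members, rules and lists were chosen with earlier results of these data known. Cell type marker lists could not be applied, since 0 identifiers matched a symbol. The groups that follow a gene at r of at least 0.9, and the animal placement over 200 genes, were chosen after seeing the data. The fits were first tested on simulated data. Chi-square values used genes with at least 10 counts in the pair.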

Additional observations from a re-analysis of the deposited data

Results flagged for a closer look

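In 29 sets of 10 values (library measures, named genes by letter, and the SD of the differences), 10 had a highest or lowest value far from the other 9. Chance gives about 1 set in 20 where values are normally distributed and sets are not picked by their values. Most of these sets are CPM values of genes that were named for a small p or a large difference, so their number cannot be read against that rate. Library 4504A held 37.0 M counts, with the next A library at 25.1 M. Counts made up 63.0% of the total behind the RPKM scaling in library 4501A (next 61.0%) and 53.9% in library 1502C (next 57.7%).

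Animal 1501 gave 3 of the far gene values. ENSMFAG00000034819 stood at 1.96 CPM in 1501C (next C library 1.19), ENSMFAG00000024102 at 4.64 CPM in 1501A (next A library 2.64), and ENSMFAG00000008274 at 36.6 CPM in 1501C (next C library 7.28). Library 4503A gave another 3, with ENSMFAG00000000183 at 14.9 CPM (next 10.8), ENSMFAG00000000951 at 266 CPM (next 137) and ENSMFAG00000031107 at 128 CPM (next 54.6). Library 4504A had ENSMFAG00000031682 at 105 CPM, with the next A library at 33.4 CPM.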

How the results depend on the processing

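The A against C count of 1 gene was also 1 with no replicate block in place of the paired fit, with RLE size factors, without the low-count filter and in limma voom (within-animal correlation 0.168). It was 0 at a mean CPM of at least 1, which leaves out that gene, and 12 in DESeq2. Leaving out 1 animal gave 0 to 2. The 1 call without animal 4504, with genes filtered afresh, was another gene, since ENSMFAG00000034819 was not tested there. DESeq2 called 7 genes for the letter difference between treatments, 153 within Para09 at 50 mg/kg and 1 within Para09 at 200 mg/kg, where edgeR called 0. Leaving out 1 animal gave 0 to 188 within Para09 at 50 mg/kg and 234 to 606 for animals of the same treatment, and 0 throughout for the letter difference between treatments. The cause of these changes was not tested. All 9 named genes kept their direction in every setting in which they were tested. The median within-animal SD of 0.451 was 0.461 after thinning to 16 M counts and 0.386 at a mean CPM of at least 10. The share on 3 components was 76.6% at a mean CPM of at least 1, 84.2% with the mean difference removed, and 84.9% to 87.4% without 1 animal. RLE in place of TMM moved the median of all genes by -0.0017. DESeq2 within treatments, the component share without each animal and the omissions that keep the genes of the full fit were added after seeing the data. Depth limits ENSMFAG00000034819, with at most 7 counts in an A library, and ENSMFAG00000031913, with 1, 4 and 5 counts in libraries 4502C, 4503C and 5502C.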

Other observations

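Exonic width moved with the within-animal difference in some animals. Across the 10038 genes averaging at least 10 CPM, the A minus C log2 difference correlated with log2 exonic width at r = 0.235 in animal 1501 and 0.205 in animal 4504, and at r = -0.292 in animal 4501 and -0.22 in animal 5502, while the other 6 animals lay between -0.0846 and 0.128. Correlation with the mean level of the gene lay between -0.0746 and 0.0939 in all 10 animals. Animals 4501 and 4504 are also opposite on the second component, and the part of width in that component was not tested. In 1829 genes, or 12.5%, the variation per degree of freedom between animals of a treatment was over 4 times that between their 2 libraries. Since the value between animals also contains the spread between libraries, the variance of the animals alone was less than 4 times as large at that limit.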
